A study of Homo sapiens with 6 samples.

Results

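The genes described here are 36 interferon-stimulated genes, taken by symbol from a fixed list of genes that cells switch on when interferon reaches them. All 36 were found among the 17721 genes of the deposited table. They were read in MDA-MB-231BR cells, which descend from the triple-negative human breast carcinoma line MDA-MB-231 and home to the brain. Of the 6 RNA libraries, 3 came from cells with an shRNA against ACSS2 and 3 from cells with a control shRNA. ACSS2 turns acetate into acetyl-CoA in the nucleus and the cytosol. Both groups carried a short hairpin RNA delivered by lentivirus and were selected with an antibiotic, and were grown without added interferon as far as the labels tell. The labels call the libraries of a group biological replicates and give them the numbers 1 to 3, but they do not say how many hairpin sequences stood behind the numbers. No library of cells without a hairpin was analysed here, so an effect of carrying a hairpin that is common to both groups cannot be seen in these values.

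Type I and type III interferons bind receptors that activate the kinases JAK1 and TYK2, which phosphorylate STAT proteins. STAT2 acts with IRF9 in the complex ISGF3, which binds the interferon-stimulated response element (ISRE) in the promoters of antiviral genes. Interferon gamma acts through another element, the gamma-activated sequence (GAS). Double-stranded RNA in the cytosol is a known trigger of interferon production, and for this reason interferon-stimulated genes are commonly read as a check in cells that carry hairpin RNAs.

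The promoter letters of the members that the results below turn on are shown first. RefSeq promoter windows on GRCh38.p14 (250 bases before to 50 bases after a start, 300 in all) were matched by symbol for 30 of the 36 members, with 42 windows. IFIT2, OAS2, OASL, USP18, IRF7 and MX2 have no entry. The ISRE core was searched on both strands as GAAA, any 2 bases and GAAA again, which on the opposite strand reads TTTC, any 2 bases and TTTC. It was found in 20 of the 30 members with a window, or 66.7%, against 4.38% of the 27305 genes and 3.57% of the 35116 windows in the whole table. Each line below runs in the direction of transcription and gives 30 bases with the ISRE core in capitals, or the GAS core for IRF9.
IFIT1, chr10:89392497-89392526, plus strand: ctagctttagTTTCACTTTCccctttcggt
IFIT3, chr10:89332468-89332497, plus strand: gttccatcagTTTCACTTTCctttcccctt
BST2, chr19:17405741-17405770, minus strand: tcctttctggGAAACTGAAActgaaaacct
PARP9, chr3:122564322-122564351, minus strand: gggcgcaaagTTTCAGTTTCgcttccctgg
PARP14, chr3:122680800-122680829, plus strand: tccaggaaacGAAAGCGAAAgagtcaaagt
OAS3, chr12:112938452-112938481, plus strand: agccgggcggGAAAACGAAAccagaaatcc
ISG15, chr1:1013380-1013409, plus strand: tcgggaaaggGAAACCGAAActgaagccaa
IRF9, chr14:24161192-24161221, plus strand: accacgtgatTTCTGGGAAaaggccctccc

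The shown core begins 116 bases before the annotated start in IFIT1, 51 before it in the second window of IFIT3 and 41 before it in PARP9. In IFIT1 and IFIT3 the shown core has the same letters, a form found in 3 members. The form with CT between the repeats, read in the GAAA direction, was the most common and stood in 10 members, BST2, PARP9 and OAS3 among them. The members without an ISRE core in their windows were IFI16, IRF9, IRF1, STAT2, OAS1, IFI35, HERC6, SP100, XAF1 and CMPK2. The GAS core, searched as TTCNNNGAA, which reads the same on both strands, was found in 9 of the 30 members, or 30.0%, against 9.38% of genes and 7.66% of windows. In BST2, IFI27 and MX1 a GAS core overlaps an ISRE core. These are matches of letters, not binding sites.

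Total counts were between 15048275 and 18608104 per library, with 15050 to 15441 genes above 0. The labelled line was checked against its markers: the mesenchymal markers VIM, LGALS1, CD44 and AXL were high, with VIM at a mean of 6090 TPM (a level corrected for transcript length and library size) in ACSS2 shRNA cells and 5480 TPM in control shRNA cells, while the epithelial cadherin CDH1 averaged 0.0167 TPM and 0 TPM. The lists were not uniform: over the 6 libraries S100A4 of the mesenchymal list averaged 9.165 TPM, and of the luminal epithelial list KRT19 averaged 449.8, ERBB2 30.56 and FOXA1 17.37 TPM. Of the leukocyte list, 5 of 7 genes found averaged under 1 TPM, the pan-leukocyte gene PTPRC among them, and the summed list was 414.5 to 819.4 TPM in ACSS2 shRNA libraries and 384.2 to 889.9 TPM in control shRNA libraries, nearly all of it CD68. The list for plasmacytoid dendritic cells, the chief interferon producers in blood, summed to 1.22 to 2.56 TPM and 0.74 to 1.58 TPM, with LILRA4 at 0 in every library. A few low markers of other cell types were higher in the paired fit, namely CD14 (5.33 TPM in ACSS2 shRNA cells, 2.03 TPM in control shRNA cells), IL3RA (1.65 and 0.39 TPM), CDH5 (1.73 and 0.423 TPM) and KDR (7.1 and 4.06 TPM). Others were lower in that fit, namely the luminal factor GATA3 (1.86 and 3.32 TPM), the myelin gene MBP (46.61 and 55.63 TPM) and CD44 of the line's own list (339.5 and 467 TPM, also called by unpaired DESeq2 at an adjusted p of 0.0302). The part of these genes in the results was not tested.

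ACSS2 itself had 11.13, 50.53 and 88.66 CPM (counts scaled by library size and TMM factors, with no correction for length) in ACSS2 shRNA replicates 1, 2 and 3, against 76.25, 71.22 and 163.6 CPM in control shRNA replicates 1, 2 and 3. The groups overlapped, since ACSS2 shRNA replicate 3 lay above 2 control libraries, yet ACSS2 was lower in each same-numbered pair. Without pairing, edgeR put the log2 fold change of ACSS2 at -1.05 (SE 0.639, adjusted p = 0.504), and it was -1.31 (SE 0.30, adjusted p = 0.00757) with the replicate number as a block, where DESeq2 with the block gave an adjusted p of 0.126. Without replicate number 1 the paired log2 fold change of ACSS2 was -0.70 (edgeR adjusted p = 0.00249).

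Over both groups the 36 genes covered a wide range of levels. IFI16 was highest at a mean of 161.3 TPM over the 6 libraries, followed by ISG15 at 99.69 TPM, IFI6 at 57.79 TPM, BST2 at 57.67 TPM, ISG20 at 51.44 TPM and SP100 at 49.66 TPM. IFI6 and BST2 are neighbours in this order whose library values overlap. In control shRNA libraries alone the means of these 6 genes were 125.1, 88.33, 60.61, 44.98, 46.85 and 45.39 TPM, which puts BST2 last. Of the 36, 4 genes were too low to be tested: IFI27, XAF1, RSAD2 and CMPK2, whose means were 0.597, 0.318, 0.0617 and 0.00833 TPM. RSAD2, which encodes viperin, an antiviral enzyme that makes a chain-terminating nucleotide, had 7, 0 and 1 counts in ACSS2 shRNA replicates 1, 2 and 3 against 0, 4 and 0 counts in control shRNA replicates 1, 2 and 3. CMPK2, its neighbour in the genome and a mitochondrial nucleotide kinase, had 0 counts in all ACSS2 shRNA libraries and 0, 1 and 0 counts in control shRNA libraries. A count of 3, the limit that 0 counts allow, corresponds to 0.167 to 0.194 CPM in these libraries, by counting error alone. So several members of this list were abundant in these cells without added interferon, while genes such as RSAD2 and CMPK2 stayed at or near 0 in both groups.

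**Figure D1:**
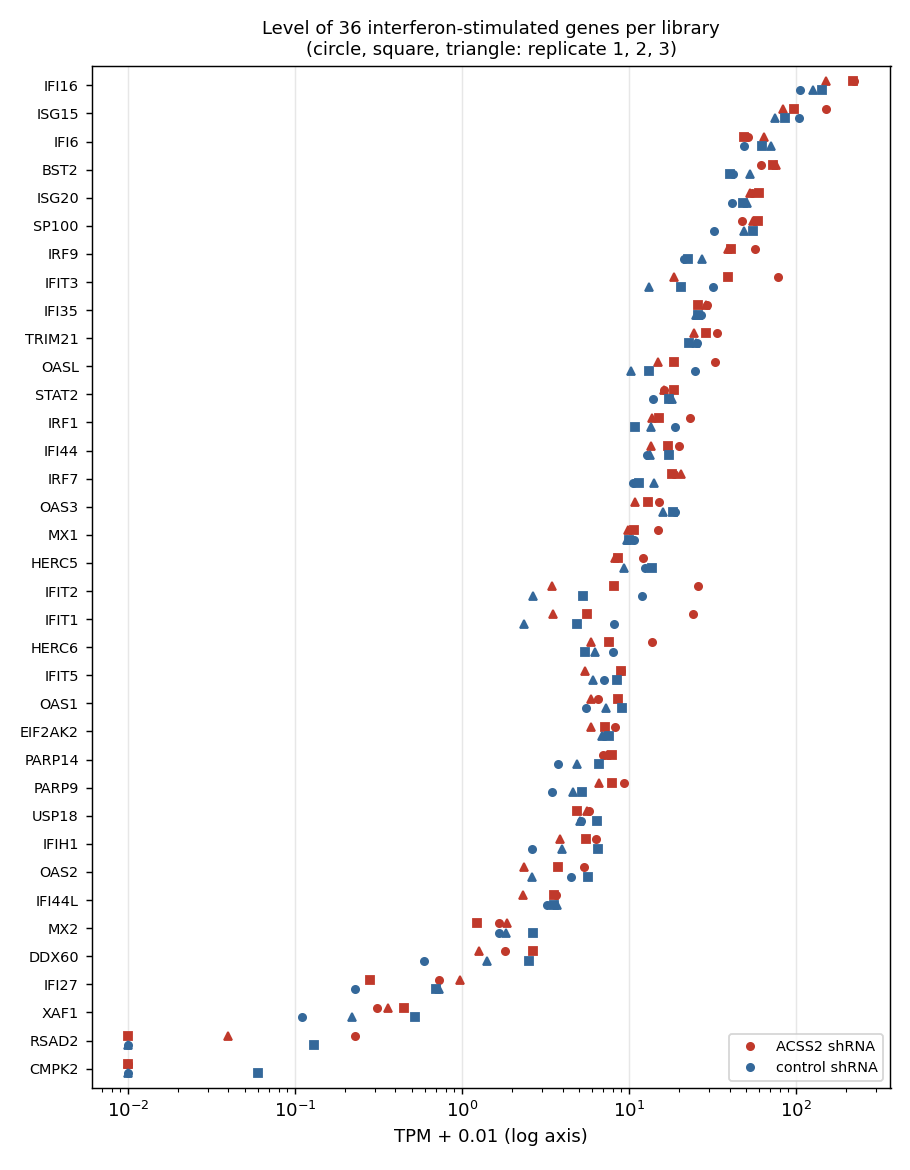
Level of each of the 36 interferon-stimulated genes as TPM + 0.01 on a log axis, 1 point per library, with ACSS2 shRNA above control shRNA and circle, square and triangle for replicates 1, 2 and 3. IFI16 is highest at a mean of 161.3 TPM and the 4 untested genes lie below 1 TPM; among the tested genes, IFIT1, IFIT2 and IFIT3 have replicate 1 (circles) well to the right of replicate 3 (triangles) in both groups.

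Between the groups, 9 of the 32 tested members rose with ACSS2 shRNA and 1 fell when libraries were compared within their replicate number, and no member passed the test when the numbers were ignored. The 9 were IFIT1, IFIT2, IFIT3, IFI16, IRF7, IRF9, BST2, PARP9 and PARP14, and the 1 that fell was OAS3. In this paired fit (edgeR's quasi-likelihood test with the replicate number as a block, Benjamini-Hochberg adjusted p under 0.05 over all 13003 genes tested), 28.1% of tested members were higher against 12.7% of all genes, and 3.12% were lower against 12.4% of all genes. In the unpaired fit the members had 0 calls, where 0.0231% of all genes were called higher and 0.0461% lower; at an unadjusted p under 0.05 it gave 6 of 32 members, against 14.0% of all genes. DESeq2 called 1 member higher without the block, IRF9 (adjusted p = 0.0289; 1.64% of all genes higher, 2.35% lower). With the block, DESeq2 called the same 10 members as the paired edgeR fit, against 8.87% of all genes higher and 10.9% lower. Below, rose and fell refer to the paired edgeR fit. In bulk RNA, a change in every cell and a change in the share of cells that express a gene cannot be told apart.

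The median log2 fold change of the 32 tested members was 0.18 in the paired fit and 0.17 in the unpaired fit, against 0.02 in both for all genes. By replicate number the members' median difference was 0.25 for pair 1, 0.08 for pair 2 and 0.04 for pair 3, where all genes had 0.04, -0.001 and 0.02. Of the members, 13 were higher in all 3 pairs (30.5% of all genes were) and 6 lower in all 3 pairs (27.3% of all genes were). The groups did not overlap at all for 8 members: IFI16, IRF7, IRF9, BST2, PARP9, PARP14 and SP100 were higher in every ACSS2 shRNA library than in any control library, against 10.7% of all genes, and OAS3 was lower in every one, against 9.63% of all genes. The summed level of the 36 genes was 1070, 897 and 765.7 TPM in ACSS2 shRNA replicates 1, 2 and 3, and 675.5, 719.6 and 681.2 TPM in control shRNA replicates 1, 2 and 3. On TPM, where the median of all genes was itself shifted by 0.11 log2, all 3 ACSS2 shRNA sums lay above the control sums, with the widest gap for replicate 1. As a share of counts the groups overlapped: the 36 genes took 0.127%, 0.109% and 0.0883% of counts in ACSS2 shRNA libraries and 0.0816%, 0.0907% and 0.0825% in control libraries, with ACSS2 shRNA replicate 3 below control replicate 2. Without ACSS2 shRNA replicate 1, which leaves the replicate numbers unequal between the groups, the members' median in the unpaired fit was -0.04 log2.

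**Figure D2:**
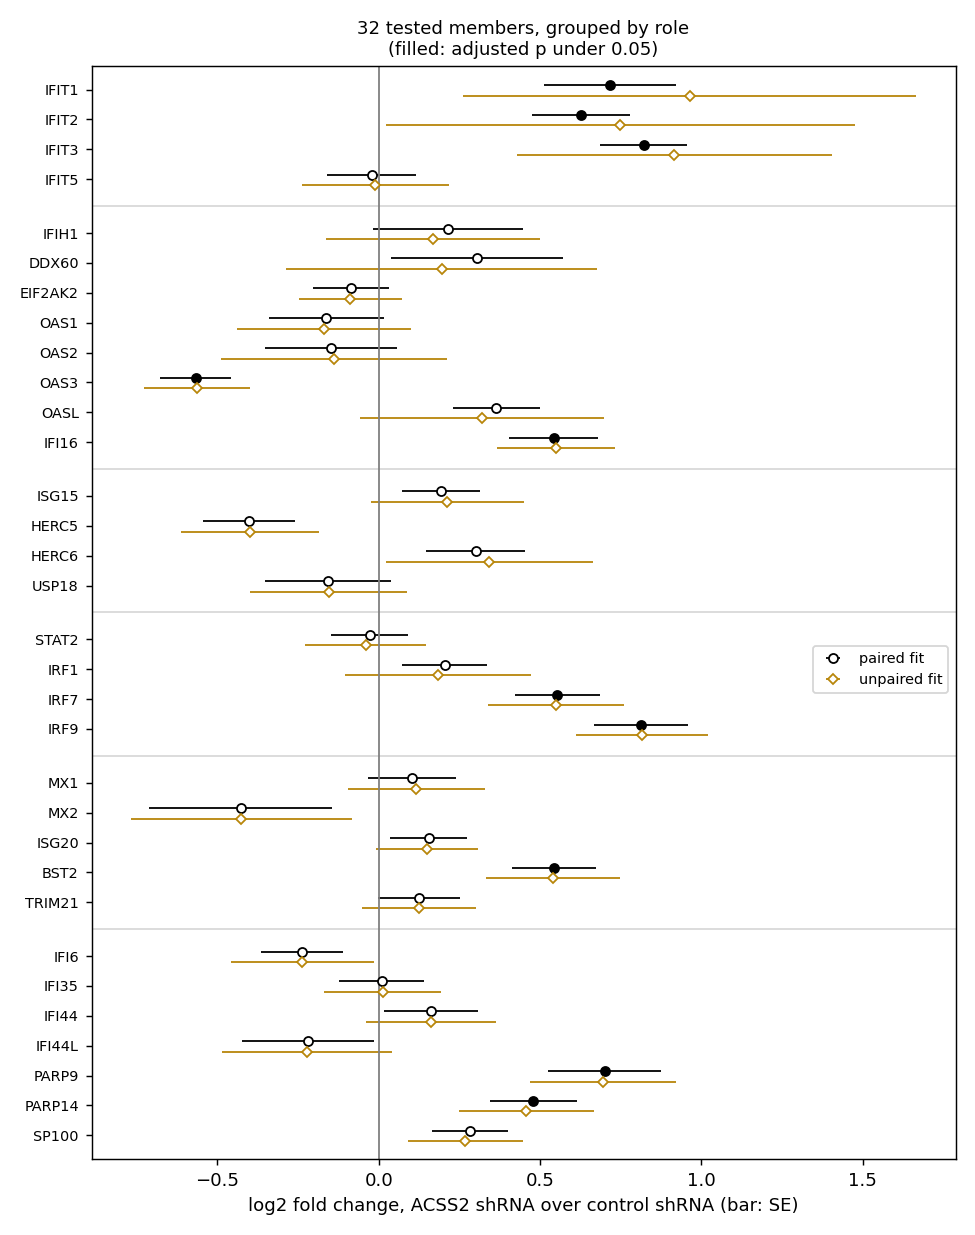
Log2 fold change of ACSS2 shRNA over control shRNA for the 32 tested members in 6 blocks by role, from top to bottom IFIT proteins, sensors and RNA-activated enzymes, ISG15 conjugation, transcription factors, antiviral effectors and others. Bars are standard errors, black circles the paired fit (filled where the adjusted p is under 0.05) and gold diamonds the unpaired fit; IFIT1, IFIT2 and IFIT3 have the widest unpaired bars.

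The transcription factors come first, since they act on the other members. IRF9, the DNA-binding subunit of ISGF3, had 47.6, 34.19 and 36.48 CPM in ACSS2 shRNA replicates 1, 2 and 3 against 20.67, 20.07 and 26.41 CPM in control shRNA replicates 1, 2 and 3. Every ACSS2 shRNA library was above every control library, with the widest gap in replicate 1. IRF9 rose 1.76-fold (log2 0.81, SE 0.147, adjusted p = 0.002), with pair differences of 1.18, 0.75 and 0.46 log2. Among the 36 members it is the only one with a q-value under 0.05 in the authors' own deposited comparison. There, IRF9 has a log2 fold change of 0.79 and a q of 0.0443. Of all 16861 genes with a q-value, 423 were under 0.05, a share close to that of 1 in 36 members. IRF7, the factor that amplifies type I interferon production, had 18.09, 18.41 and 23.02 CPM in ACSS2 shRNA libraries against 12.19, 12.26 and 16.21 CPM in control libraries. Its groups did not overlap, and replicate 3 was the highest in both. IRF7 rose 1.47-fold (log2 0.55, SE 0.132, adjusted p = 0.00926) by a similar amount in the 3 pairs, 0.55, 0.57 and 0.49 log2.

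The other transcription factors among the members did not pass the test. STAT2, which carries the activation domain of ISGF3, had a paired log2 fold change of -0.03 (adjusted p = 0.892). IRF1, an early interferon-induced factor, had 0.20 (adjusted p = 0.276). IRF9 and IRF7 were thus called and STAT2 and IRF1 were not; the groups overlapped for both, with an estimate close to 0 for STAT2 and a positive one for IRF1.

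**Figure D3:**
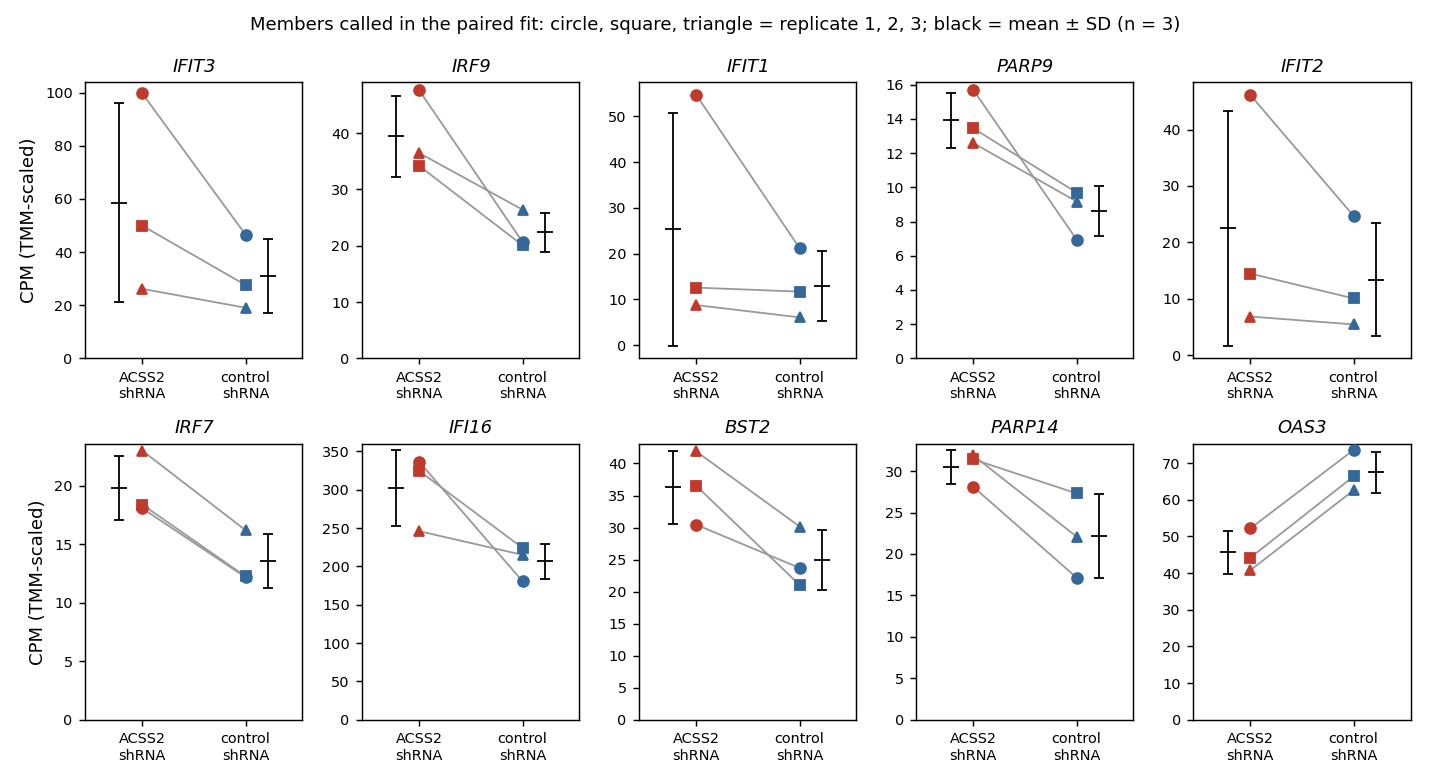
TMM-scaled CPM per library for the 10 members called in the paired fit, in order of their log2 fold change, with ACSS2 shRNA left, control shRNA right, grey lines joining the same replicate number and black bars the mean ± SD of 3 libraries. All 3 lines fall to the right in the 9 members that rose and rise to the right in OAS3; in IFIT1, IFIT2 and IFIT3 the red and blue points overlap between replicate numbers.

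The IFIT proteins are a family of interferon-induced antiviral proteins, and the genes lie side by side in 10q23.31. IFIT3 had 99.76, 49.96 and 26.18 CPM in ACSS2 shRNA replicates 1, 2 and 3 against 46.53, 27.6 and 19.05 CPM in control shRNA replicates 1, 2 and 3. The order of the replicates was the same in both groups, 1 highest and 3 lowest, and the groups overlapped. IFIT3 rose 1.77-fold (log2 0.82, SE 0.136, adjusted p = 0.00118) in the paired fit, with pair differences of 1.09, 0.85 and 0.45 log2; unpaired the estimate was 0.92 with an SE of 0.488 (adjusted p = 0.446).

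IFIT1 binds viral RNA that lacks the host's cap methylation and blocks its translation. The gene had 54.67, 12.57 and 8.748 CPM in ACSS2 shRNA libraries against 21.18, 11.69 and 6.07 CPM in control libraries. One library, ACSS2 shRNA replicate 1, was far above the others, and the remaining 5 overlapped. IFIT1 rose 1.65-fold (log2 0.72, SE 0.205, adjusted p = 0.023), with a pair difference of 1.35 log2 for replicate 1 but 0.10 and 0.49 for replicates 2 and 3. IFIT2, which forms complexes with IFIT1 and IFIT3, had 46.15, 14.45 and 6.824 CPM in ACSS2 shRNA libraries against 24.66, 10.04 and 5.425 CPM in control libraries. It overlapped in the same way, with replicate 1 highest in both groups. IFIT2 rose 1.54-fold (log2 0.63, SE 0.152, adjusted p = 0.00992), with pair differences of 0.89, 0.51 and 0.31 log2. IFIT5, the fourth family member in the same cluster, had a paired log2 fold change of -0.02 (adjusted p = 0.929).

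With replicate number 1 left out of both groups, IFIT3 kept its call in the paired fit (log2 0.66, adjusted p = 0.00621), while IFIT1 (0.29, adjusted p = 0.29) and IFIT2 (0.44, adjusted p = 0.113) lost theirs. Without ACSS2 shRNA replicate 1 alone, the unpaired estimates of IFIT1 and IFIT2 turned negative, at -0.30 and -0.35. Replicate numbers were then unequal between the groups, and replicate 1 was the highest in both groups for these genes. ACSS2 shRNA replicate 1 also had the lowest ACSS2 value. Whether the level of ACSS2 and the IFIT levels are linked was not tested.

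For IFIT1, IFIT2 and IFIT3 the difference between replicate numbers was larger than that between the groups. In the paired fit the log2 difference of replicate number 1 over number 3, taken over both groups, was 2.27 for IFIT1, 2.49 for IFIT2 and 1.62 for IFIT3. The replicate term was called for 10 of 32 members, or 31.2%, against 38.7% of all genes, a share below that of all genes. The other 7 were OASL, OAS2, DDX60, ISG15, HERC6, IRF1 and IFI6; of them, OASL differed by 1.08 log2 and ISG15 by 0.58 between numbers 1 and 3, and IFI6 by -0.49 and DDX60 by -0.36. IRF9 and PARP9, which rose with ACSS2 shRNA, differed by 0.03 and -0.004 log2 between numbers 1 and 3.

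**Figure D4:**
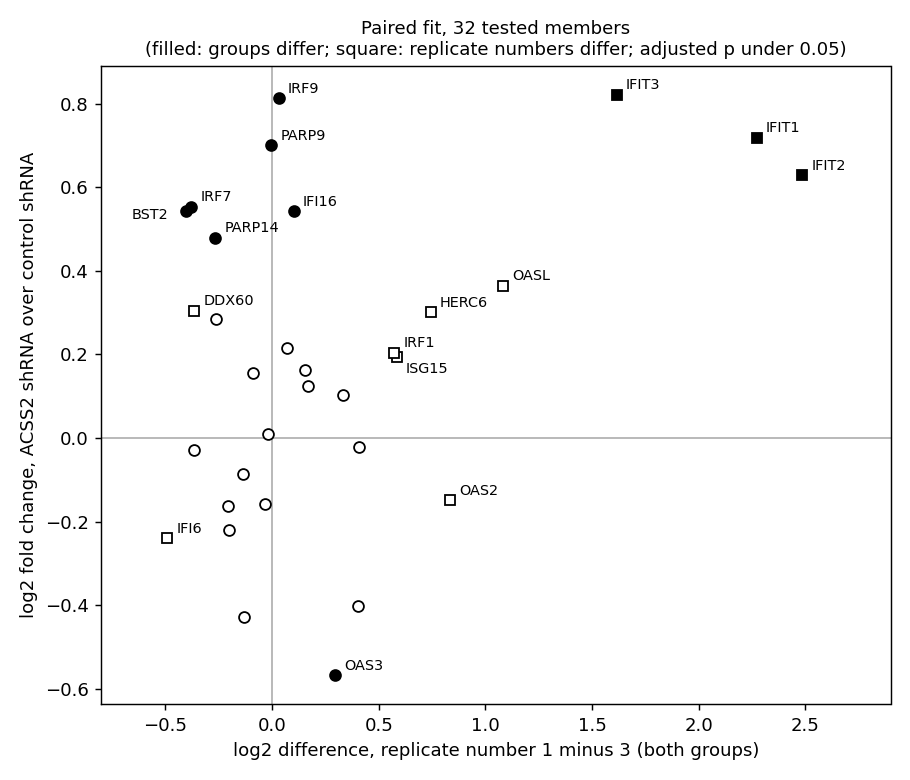
Paired fit of the 32 tested members: log2 difference of replicate number 1 minus number 3 over both groups (x) against log2 fold change of ACSS2 shRNA over control shRNA (y), filled where the groups differ and square where the replicate numbers differ at an adjusted p under 0.05. IFIT1, IFIT2 and IFIT3 lie apart at x of 1.62 to 2.49, while the other 7 called members lie between -0.40 and 0.29.

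Among sensors and RNA-activated enzymes, 1 of 8 members rose and 1 fell, or 12.5% each way, close to the 12.7% and 12.4% of all genes, so the counts show nothing about these enzymes and sensors as a group. IFI16, a sensor of DNA in nucleus and cytosol and the most abundant member, had 336.3, 324.5 and 245.9 CPM in ACSS2 shRNA replicates 1, 2 and 3 against 180.5, 224 and 215 CPM in control shRNA replicates 1, 2 and 3. The groups did not overlap, although ACSS2 shRNA replicate 3 lay close to the highest controls. IFI16 rose 1.46-fold (log2 0.54, SE 0.138, adjusted p = 0.013), with pair differences of 0.90, 0.53 and 0.19 log2. Without replicate number 1 the adjusted p was 0.0566, and without number 2 it was 0.0771.

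OAS3, an oligoadenylate synthetase that is activated by long double-stranded RNA, went the other way. It had 52.16, 44.18 and 40.76 CPM in ACSS2 shRNA libraries against 73.58, 66.37 and 62.58 CPM in control libraries. All 3 ACSS2 shRNA libraries lay below all 3 controls, and replicate 1 was the highest in both. OAS3 fell 1.48-fold (log2 -0.57, SE 0.110, adjusted p = 0.00303) with pair differences of -0.49, -0.58 and -0.61 log2, and it was called in each paired fit that left out 1 replicate number. Its neighbours in 12q24.13, the synthetases OAS1 and OAS2, had paired log2 fold changes of -0.16 (adjusted p = 0.534) and -0.15 (adjusted p = 0.631). OASL, a family member without synthetase activity that helps RIG-I signalling, had 0.36 (adjusted p = 0.066), and was called higher in the paired fit without replicate number 1. The sensors of double-stranded RNA IFIH1 (MDA5) and EIF2AK2 (PKR), which arrests translation, had 0.21 (adjusted p = 0.531) and -0.09 (adjusted p = 0.632), and the helicase DDX60 had 0.31 (adjusted p = 0.432).

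Among antiviral effectors 1 of 5 tested members rose, too few to set against the 12.7% of all genes. BST2 (tetherin), which holds budding virions at the cell surface, had 30.45, 36.51 and 41.88 CPM in ACSS2 shRNA replicates 1, 2 and 3 against 23.69, 21.04 and 30.16 CPM in control shRNA replicates 1, 2 and 3. The groups came close, with the lowest ACSS2 shRNA library just above the highest control, but did not overlap. BST2 rose 1.46-fold (log2 0.54, SE 0.130, adjusted p = 0.00936) with pair differences of 0.36, 0.78 and 0.47 log2. Without replicate number 2 the estimate was 0.38 and the adjusted p 0.16. The exonuclease ISG20 had 41.58, 42.92 and 40.82 CPM in ACSS2 shRNA libraries against 36.39, 34.61 and 41.91 CPM in control libraries. These groups overlapped, and its paired log2 fold change was 0.16 (SE 0.12, adjusted p = 0.371). The dynamin-like GTPases MX1 and MX2 had 0.10 (adjusted p = 0.617) and -0.43 (adjusted p = 0.291), and TRIM21, a cytosolic antibody receptor, had 0.12 (adjusted p = 0.5).

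No member of the ISG15 system passed. ISG15, a ubiquitin-like protein that is joined to newly made proteins, had 47.15, 30.79 and 28.97 CPM in ACSS2 shRNA replicates 1, 2 and 3 against 36.96, 28.45 and 26.86 CPM in control shRNA replicates 1, 2 and 3. Each ACSS2 shRNA library was above its same-numbered control, but the groups overlapped. The paired log2 fold change of ISG15 was 0.19 (SE 0.121, adjusted p = 0.262). Its ligase HERC5 had -0.40 (adjusted p = 0.0552), the related HERC6 had 0.30 (adjusted p = 0.169), and USP18, which removes ISG15 and dampens the type I receptor, had -0.16 (adjusted p = 0.588). HERC5 passed the threshold as lower in the paired fits without replicate number 1 and without number 3.

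Of the other interferon-induced proteins, the ADP-ribosyltransferase family members PARP9 and PARP14 in 3q21.1 rose. PARP9, which pairs with the ubiquitin ligase DTX3L, had 15.7, 13.45 and 12.59 CPM in ACSS2 shRNA replicates 1, 2 and 3 against 6.948, 9.693 and 9.17 CPM in control shRNA replicates 1, 2 and 3. The groups were apart, and replicate 1 held both the highest and the lowest library. PARP9 rose 1.62-fold (log2 0.70, SE 0.175, adjusted p = 0.0118), with pair differences of 1.12, 0.45 and 0.44 log2; without replicate number 1 its adjusted p was 0.0664. PARP14 had 28.11, 31.42 and 31.89 CPM in ACSS2 shRNA libraries against 17.14, 27.31 and 22.09 CPM in control libraries. ACSS2 shRNA replicate 1 and control replicate 2 lay next to each other without overlap. PARP14 rose 1.39-fold (log2 0.48, SE 0.135, adjusted p = 0.0218), and its call was lost without number 1 (adjusted p = 0.0774) and without number 3 (adjusted p = 0.0673).

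SP100, a component of PML nuclear bodies, had 63.57, 71.9 and 67.25 CPM in ACSS2 shRNA libraries against 44.25, 63.18 and 60.77 CPM in control libraries. The groups did not overlap by a narrow margin, and the paired log2 fold change of 0.28 (SE 0.118, adjusted p = 0.0944) did not pass. IFI6, a membrane protein that blocks virus-induced remodelling of the endoplasmic reticulum, had 20.71, 19.86 and 28.41 CPM in ACSS2 shRNA libraries against 22.49, 26.4 and 32.42 CPM in control libraries. Each ACSS2 shRNA library was below its pair, with overlap between groups, and the log2 fold change was -0.24 (SE 0.127, adjusted p = 0.187). IFI35, IFI44 and IFI44L had 0.01, 0.16 and -0.22, with adjusted p of 0.971, 0.44 and 0.464.

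Set beside the promoter letters, 5 of the 7 members that rose and have a window hold an ISRE core (IFIT1, IFIT3, BST2, PARP9 and PARP14), and IFI16 and IRF9 do not. OAS3, which fell, holds it. Of the 18 members with a window that were tested and not called, 12 hold it, as do 2 of the 4 that were not tested. The core was therefore present in members of every kind of outcome.

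Genes around the 36 were read from 6 further lists, none of which had a call in the unpaired edgeR fit. Of the interferon ligands, 2 were found in the table and neither could be tested: IFNL1 had 3, 2 and 0 counts in ACSS2 shRNA replicates 1, 2 and 3 and 2, 1 and 0 counts in control shRNA replicates 1, 2 and 3, and IFNL3 had 0, 2 and 0 counts and 0, 0 and 1 counts. The other ligands of the 21 listed, IFNB1 and IFNG among them, were looked up by symbol and not found, so their levels cannot be given. Of the 10 receptor and JAK-STAT genes, 5 rose and 0 fell (12.7% of all genes higher, 12.4% lower), with a median paired log2 fold change of 0.40. IFNGR2, the signalling chain of the interferon gamma receptor, had 67.14, 71.71 and 74.32 CPM in ACSS2 shRNA libraries against 45.22, 36.72 and 38.42 CPM in control libraries, apart in all libraries. It rose with a log2 fold change of 0.83 (SE 0.121, adjusted p = 0.000594) and was also called by unpaired DESeq2 (adjusted p = 0.00192). IFNAR1, a chain of the type I receptor, rose by 0.55 (SE 0.132, adjusted p = 0.00957), the kinase JAK1 by 0.43 (SE 0.111, adjusted p = 0.0138) and IFNGR1 by 0.43 (SE 0.134, adjusted p = 0.0339). Groups overlapped for IFNAR1 but not for JAK1 and IFNGR1. Of these 10 genes, DESeq2 with the block called 3 higher (8.87% of all genes), and the paired edgeR fit called 2 without replicate number 2 (5.08% of all genes).

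In nucleic acid sensing and interferon induction, 4 of 16 tested genes rose and 1 fell (12.7% of all genes higher, 12.4% lower), with a median of 0.05 log2. TMEM173 (STING1), the adaptor that relays cyclic GMP-AMP made on cytosolic DNA, had 115.6, 124.9 and 114 CPM in ACSS2 shRNA replicates 1, 2 and 3 against 66, 59.98 and 81.82 CPM in control shRNA replicates 1, 2 and 3. All 3 ACSS2 shRNA libraries were higher, and TMEM173 rose by 0.78 log2 (SE 0.126, adjusted p = 0.00101; unpaired DESeq2 adjusted p = 0.00907). The kinase IKBKE rose by 0.58 (SE 0.136, adjusted p = 0.00879) and DHX58 (LGP2), a relative of RIG-I, by 0.66 (SE 0.201, adjusted p = 0.0302), with overlapping groups for both. MAVS, the mitochondrial adaptor of RIG-I and MDA5, fell with a log2 fold change of -0.45 (SE 0.122, adjusted p = 0.0178), its groups overlapping, and was not called without replicate number 1 or without number 2. The 4 higher calls of this list were 2 without number 1 (10.5% of all genes higher), 2 without number 2 (5.08%) and 2 with DESeq2 and the block (8.87%). Of 8 tested brakes on interferon signalling 1 rose and 1 fell, near the shares of all genes. The inhibitor SOCS3 rose by 0.74 (SE 0.136, adjusted p = 0.00221) and the phosphatase PTPN1 fell, at -0.48 (SE 0.114, adjusted p = 0.00887). Unpaired DESeq2 called SOCS3 (adjusted p = 0.0287) but not PTPN1 (adjusted p = 0.196).

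Of 41 tested interferon-stimulated genes outside the 36, 11 rose, 2 fell and 28 were not called, with a median of 0.20 log2; at 26.8% higher and 4.88% lower these shares lie near those of the 36. Without replicate number 2 the paired fit called 5 of them higher, and its share of higher calls over all genes was 5.08%, against 12.7% with all 3 numbers. GBP2, a guanylate-binding GTPase, rose by 0.86 (SE 0.118, adjusted p = 0.000404), the helicase HELZ2 by 0.77 (SE 0.109, adjusted p = 0.000469) and TRANK1 by 0.94 (SE 0.151, adjusted p = 0.000994). Groups overlapped for GBP2 and TRANK1 but not for HELZ2. Unpaired DESeq2 called HELZ2 (adjusted p = 0.0182) but not GBP2 (adjusted p = 0.22) or TRANK1 (adjusted p = 0.329). TRIM14, an adaptor at MAVS, fell, at -0.68 (SE 0.109, adjusted p = 0.000994). Of 13 genes of the RNA interference machinery, which processes short hairpins, 3 rose and 0 fell. That is 23.1% higher, where 12.7% of all genes were higher and 12.4% lower. DICER1 rose by 1.06 (SE 0.152, adjusted p = 0.000537), TNRC6A by 1.01 (SE 0.160, adjusted p = 0.000895) and AGO4 by 0.81 (SE 0.179, adjusted p = 0.00661). Without replicate number 2 the paired edgeR fit called 2 genes of this list higher (5.08% of all genes higher). Unpaired DESeq2 called DICER1 (adjusted p = 0.000927) and TNRC6A (adjusted p = 0.00613) higher, but not AGO4 (adjusted p = 0.111). That is 2 of 13 genes, where 1.64% of all genes were higher in that fit.

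**Figure D5:**
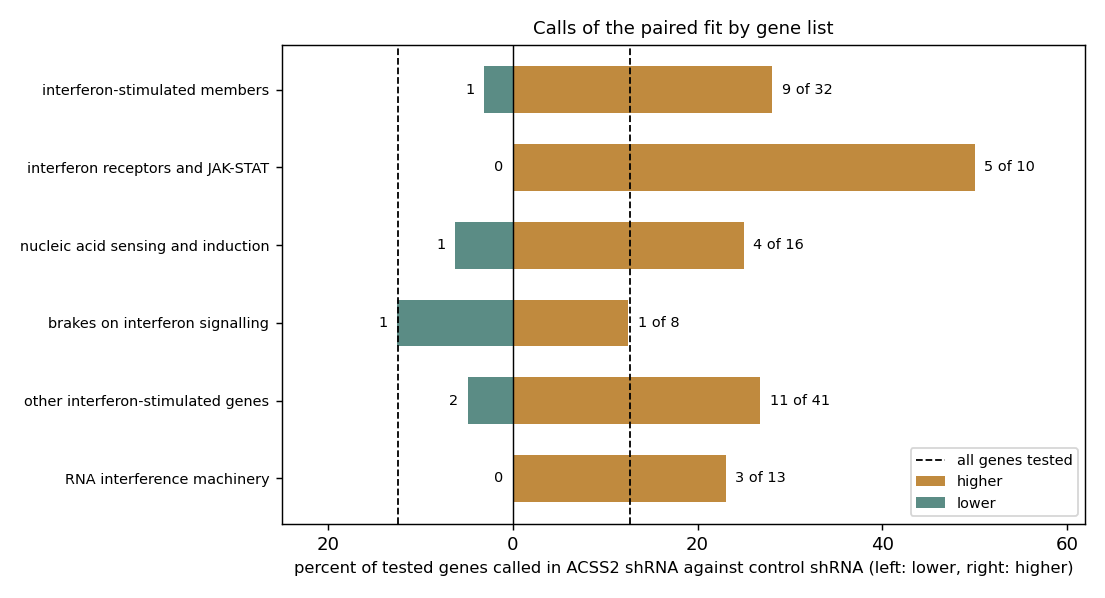
Percent of tested genes called higher (bars to the right) and lower (bars to the left) in ACSS2 shRNA against control shRNA in the paired fit, for the 36 members and 5 further lists, with counts beside the bars and dashed lines at 12.7% and 12.4% for all genes tested. The receptor and JAK-STAT list has the longest bar, 5 of 10 genes, and the 36 members and the other interferon-stimulated genes have bars of similar length, 28.1% and 26.8%.

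Some values need care in reading. The sources used here do not state whether reads were counted by strand. Genes on the opposite strand overlap 7 of the called members by the spans in the table, among them MVB12A at BST2, with up to 129.4 CPM and a paired log2 fold change of -0.64, and IPO4 and PSME2 at IRF9, with up to 166.7 and 120.1 CPM and log2 fold changes of -0.24 and -0.02. Others had positive estimates, among them DTX3L at PARP9, with up to 21.22 CPM and 0.40 log2, and PHRF1 at IRF7, with up to 67.31 CPM and 0.15 log2. Their part in the values was not tested. Expected counts were whole in all 6 libraries for 29 members, within 0.001. They were not for IFIT3, PARP14, EIF2AK2, IRF1, MX1, STAT2 and XAF1, so part of the reads of these genes was assigned by estimation.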

How the data were processed

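RNA of 3 ACSS2 shRNA and 3 control shRNA cultures was selected on oligo(dT) beads before sequencing by BGI on DNBSEQ, per the labels' protocols. HISAT, Bowtie2 and RSEM, with no versions, appear in the submitters' processing notes. The authors deposited expected counts (estimated reads per gene) and TPM per library, and their own comparison as a log2 fold change and q-value, per the file headers. From that table, 565 lines of spilled annotation text were left out, 26 symbols turned into dates were restored by gene ID, and 17479 gene IDs matched a reference table. Expected counts, of which 12.32% to 14.91% of those above 0 were not whole, were rounded.

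Group differences were tested with edgeR 4.0.16 in R 4.3.3 (TMM, filterByExpr with minimum count 10 and minimum total 15, quasi-likelihood F test, Benjamini-Hochberg over 13003 genes), without a block and with the replicate number as a block. The batch tag in the labels gives the numbers. Deviations of same-numbered libraries from their group means correlated across genes by 0.716, 0.494 and 0.740, and those of differently numbered libraries by -0.01 at most. Deviations within a group sum to 0, so the latter values follow in part from the former and are no separate check. Biological variation was estimated at 26.6% without and 11.85% with the block. SE is the absolute log2 fold change over the square root of F. Pair differences used CPM + 0.5. Alternatives were DESeq2 1.42.0, RLE factors, no filter, limma 3.58.1 on log2(TPM + 1) and log2(TPM + 0.1), and leaving out libraries. The code was tested on simulated data. Depth limits members under about 10 counts. P-values of the unpaired fit are set against the spread between the 3 libraries of a group. Those of the paired fit are set against the spread left after the replicate number is taken out.

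The members and lists were chosen with earlier results of these data known. Values per library are given for members called in either edgeR fit, with groups that do not overlap, or among the 6 highest by TPM; up to 4 called genes per further list are named, smallest paired p first. Some genes of the further lists, and 1 of those lists, are not reported here.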

Additional observations from a re-analysis of the deposited data

How the results depend on the processing

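In the unpaired fit the members had 0 calls with RLE factors, without the low-count filter and with limma on log2(TPM + 1) or log2(TPM + 0.1); DESeq2 called 1 higher. Over all genes, the 3 higher and 6 lower calls became 213 and 305 with DESeq2, 2 and 5 with RLE factors, 12 and 27 without the filter, and 6 and 6 with limma at either pseudocount. With the replicate number as a block, edgeR called 9 members higher and 1 lower (1657 and 1608 of all genes), DESeq2 9 and 1 (1153 and 1423), edgeR without the filter 9 and 2 (1599 and 1895), adding HERC5, and limma on log2(TPM + 1) 10 and 1 (2302 and 1071), adding OASL. All 10 members called in the paired fit were called in each of these. On TPM the median of all genes was 0.11 log2 (0.12 with the smaller pseudocount), and 68.2% of paired limma calls were higher, against 50.8% in paired edgeR.

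Leaving out single libraries or a replicate number without the block gave 0 members called, 0 to 1 genes higher, 0 to 5 lower and a members' median of -0.042 to 0.264 log2. The lowest was without ACSS2 shRNA replicate 1, where IFIT1 (-0.30, adjusted p = 0.864), IFIT2 (-0.35, adjusted p = 0.879) and ISG15 (-0.057, adjusted p = 0.956) turned negative. The highest values of these 3 genes, 1.513, 1.54 and 0.368, came without control shRNA replicate 1. In both groups replicate 1 was the highest library for these 3 genes. Leaving it out of only 1 group makes the replicate numbers unequal between the groups. The part of this in the values was not tested. With the replicate block and 1 number left out, 5 to 8 members were higher and 1 to 2 lower (664 to 1555 and 917 to 1554 of all genes, with 1382 and 1383 without number 1; 10.5%, 5.08% and 11.9% of genes higher without numbers 1, 2 and 3; members' median 0.06 to 0.24). Calls lost without number 1 were IFIT1, IFIT2, PARP9, IFI16 and PARP14, without number 2 BST2, IRF7 and IFI16, and without number 3 PARP14. IFIT3, IRF9 and OAS3 were called each time. With 2 pairs the residual degrees of freedom are few.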
